A study of Mus musculus with 16 samples.

Results

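The comparison described here is the addition of IKK-16, an inhibitor of the IκB kinases (IKK), to macrophages that were already exposed to tumor medium and ruxolitinib. It was made between the 3 samples of CM + Rux + IKK-16 and the 3 samples of CM + Rux, which are 6 of the 16 samples of the series, and its samples were taken by these labels. All samples were bone marrow-derived macrophages (BMDMs), grown in culture from the marrow of WT Balb/c mice aged 8 weeks. CM is conditioned medium of 4T1 cells, a mouse mammary tumor line, and ruxolitinib (Rux) is an inhibitor of the kinases JAK1 and JAK2. CM + Rux samples received CM with 0.5 μM ruxolitinib, and CM + Rux + IKK-16 samples received the same with 0.8 μM IKK-16 in addition. Both groups therefore carry tumor medium and JAK inhibition, and only the IKK inhibitor differs between them. Titles give 4 h for the CM + Rux samples and no time for the IKK-16 samples, for which the study's methods describe the same length of treatment. The series holds no group with IKK-16 without ruxolitinib, so the effect of IKK-16 on tumor medium alone was not measured, and an inhibitor can also act on kinases other than its named target. DMEM, the medium without tumor factors (2 samples), CM alone (3 samples) and DMEM + Rux (3 samples) are used below as reference levels.

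NF-κB is a family of transcription factors made of dimers of Rel proteins, which inhibitors of the IκB type hold in the cytoplasm. Inflammatory signals activate the IKK complex, which marks the IκB proteins for degradation and so lets the dimers enter the nucleus and bind short κB motifs in promoters and enhancers. In macrophages the pathway is known for inducing cytokines, chemokines and survival genes, and also its own inhibitors, such as IκBα and A20, which form a negative feedback loop.

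The stretches below show how such κB motifs lie just before the RefSeq start of genes that are members of the pathway and of Il6 and Ebi3, 2 cytokine genes. All 7 genes were called lower with IKK-16. They are shown because they hold a match, so they do not show how common the motif is. Il6 and Ebi3 were picked after their values were seen. Of other pathway members called lower, Nfkb2, whose stretch overlaps an annotated exon, and Bcl3, Nfkbib and Irak3 are not shown. The sequences are from RefSeq on build GRCm38.p6, read 5′ to 3′ on the strand of the gene, and capitals mark a match to the κB consensus motif on either strand. Gene coordinates elsewhere in the text are those of GENCODE, whose genes begin further upstream for Tnfaip3 and Tnip3, so that these stretches lie inside the GENCODE gene but outside its exons. Rel lies at chr11:23771026-23771085 (minus strand), Nfkbia at chr12:55492648-55492701 (minus), Tnfaip3 at chr10:19015411-19015447 (minus), Tnip1 at chr11:54962962-54963021 (minus), Tnip3 at chr6:65590319-65590378 (plus), Il6 at chr5:30013045-30013104 (plus) and Ebi3 at chr17:55952554-55952613 (plus).
Rel: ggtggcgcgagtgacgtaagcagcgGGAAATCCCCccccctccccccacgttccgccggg
Nfkbia: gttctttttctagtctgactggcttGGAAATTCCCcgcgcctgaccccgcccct
Tnfaip3: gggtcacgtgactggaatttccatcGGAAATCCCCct
Tnip1: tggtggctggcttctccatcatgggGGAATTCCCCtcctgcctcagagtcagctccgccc
Tnip3: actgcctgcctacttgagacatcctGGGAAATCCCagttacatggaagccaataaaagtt
Il6: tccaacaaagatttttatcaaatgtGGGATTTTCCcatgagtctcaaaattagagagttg
Ebi3: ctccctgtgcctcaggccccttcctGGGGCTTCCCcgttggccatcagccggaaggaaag

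Over the 250 bases before the start, this motif was found on either strand in 28 of the 331 genes called lower that have an entry in the promoter table, which is 8.46%. The share was 3.91% (15 of 384) for genes called higher and 4.48% (411 of 9171) for all genes tested. It was 5.83% (95 of 1629) for genes called higher in CM than in DMEM and not called with IKK-16. Within the last 100 bases before the start the shares were 5.14%, 0.521%, 1.74% and 1.78%, in the same order. None of the 8 genes with an entry among the 12 largest falls by the naming rule holds the motif in this window. A match to the motif is a description of the letters and not of binding, and enhancers were not searched.

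Addition of IKK-16 raised 504 of 12372 tested genes past the threshold of a call (4.07%) and lowered 453 (3.66%). A call is an adjusted p-value under 0.05 in the quasi-likelihood test of edgeR together with a log2 fold change larger than 0.5 in size. The falls were the deeper of the changes, with 179 genes below -1 and 46 below -2, against 131 rises above 1 and 11 above 2. The median log2 fold change was 0.75 for genes called higher, -0.86 for genes called lower and -0.0019 for all genes. The 3 samples of one group lay wholly outside the range of the other in 495 of the 504 rises and 442 of the 453 falls. Most genes named below had to lie among these, so their lack of overlap follows from the choice. The naming rule is given with the processing. Libraries held 38450593, 46215853 and 20706611 counted fragments in CM + Rux and 38004215, 33845606 and 34660577 in CM + Rux + IKK-16. With total counts in place of the scaling by relative log expression, 727 genes were called higher and 350 lower, so that rises made up 67.5% of calls in place of 52.7%. The main model does not hold the replicate number. With it 719 genes were called higher and 623 lower, and 807 and 667 when the 2 groups were fitted alone. The p-values of the main model measure the spread between samples within all 6 groups of the fit, without the pairing by number. The labels do not say whether replicates were separate animals or cultures, so whether this is a spread between animals is not known.

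Shares are given here of the library totals after scaling by relative log expression, not of the raw reads. The genes called lower took 6.97, 7.72 and 6.89% in CM + Rux and 3.46, 4.24 and 3.98% in CM + Rux + IKK-16. In DMEM these genes took 2.28 and 2.01%, and in CM between 6.70 and 7.62%. The genes called higher took 1.84, 1.92 and 1.90% in CM + Rux and 3.29, 3.08 and 3.17% with IKK-16, beside 3.33 and 4.05% in DMEM. The shares with IKK-16 thus lay between those of tumor medium and those of plain medium in both sets. The genes were chosen on these samples, so the CM + Rux and IKK-16 shares describe the size of the calls and test nothing.

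Markers of the labelled cell type were present in both groups. Of 12 macrophage markers tested 0 were called in the quasi-likelihood test of edgeR, and 1, Mertk, singled out after its value was seen, passed an unadjusted p of 0.05 with the same fold threshold and was called by DESeq2. With total counts 2 of the 12 were called higher. Their summed level was 51948, 62035 and 56770 CPM (counts scaled to library size) in CM + Rux and 51674, 57638 and 56077 CPM with IKK-16, most of it Lyz2 at 32598 CPM. Epithelial markers, which tumor cells would carry, summed to at most 1.16 CPM, with Krt14 and Krt5 at 0. Neutrophil markers summed to 154, 159 and 177 CPM against 123, 133 and 135 CPM, most of it Csf3r, while Ly6g and Retnlg were at 0. Among T and NK cell markers 6 of 9 were at 0. B cell markers summed to 12.2, 15.5 and 12.5 CPM against 13.1, 15.6 and 11.9 CPM, mostly Ighm. Fibroblast markers summed to between 6.96 and 21.5 CPM, with Col1a2 the most abundant. Dendritic cell markers summed to 8.15, 11.1 and 7.28 CPM against 3.61, 5.26 and 3.61 CPM, and the 1 member called lower, Ccr7, was also the most abundant. Ccr7 lost its call without CM + Rux + IKK-16 replicate 1 (adjusted p = 0.074) or 3 (0.068) and without CM + Rux replicate 2 (0.072). Whether a change in the few cells of that type takes part in the fall of Ccr7 was not tested, and in bulk RNA fewer cells of a type cannot be told apart from less RNA per cell.

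The Rel proteins themselves were the first group examined. All 5 subunit genes had log2 fold changes below 0, and 2 of them were called lower (1 with total counts). This list and those below stand beside 3.66% of all genes called lower and 4.07% called higher. Nfkb2 (ENSMUSG00000025225, chromosome 19 from 46304320 to 46312385), which encodes the p100 precursor of the non-canonical pathway, had 826, 813 and 915 CPM in CM + Rux and 446, 478 and 533 CPM with IKK-16. The highest IKK-16 sample thus lay well below the lowest CM + Rux sample, and Nfkb2 fell by 0.81 in log2 units (standard error 0.15, adjusted p = 0.0035). Rel, the gene of c-Rel, had 352, 305 and 270.0 CPM against 221, 231 and 194 CPM, again with no overlap. It fell by 0.52 (standard error 0.12, adjusted p = 0.0091). Its size was close to the fold change threshold, and the log2 fold change was -0.44 with total counts, -0.45 without CM + Rux + IKK-16 replicate 3 and -0.42 without CM + Rux replicate 1. Nfkb1 (-0.48, adjusted p = 0.010) and Rela (-0.32, adjusted p = 0.039), the genes of p105 and p65, passed the p-value threshold but not that of the fold change. Nfkb1 was called without CM + Rux + IKK-16 replicate 2 (-0.53) and without CM + Rux replicate 3 (-0.57). Relb was at -0.38 with an adjusted p of 0.069.

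Of 20 genes that restrain NF-κB 7 were called lower with IKK-16 and 0 higher, beside 3.66 and 4.07% of all genes. Nfkbia (ENSMUSG00000021025, chromosome 12 from 55489410 to 55492647), which encodes IκBα, had 923, 1079 and 866 CPM in CM + Rux and 424, 629 and 547 CPM with IKK-16. Every IKK-16 sample lay below every CM + Rux sample, and the log2 fold change was -0.84 (standard error 0.17, adjusted p = 0.0046). In DMEM the mean was 147 CPM (SD 41.5, n = 2), so Nfkbia was still above its level in plain medium.

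Tnfaip3 (ENSMUSG00000019850, chromosome 10 from 19000910 to 19015657), the gene of the deubiquitinase A20, had 619, 824 and 585 CPM against 277, 388 and 336 CPM. It fell by 1.02 (standard error 0.18, adjusted p = 0.0026) with no overlap of the samples. Tnip3, an A20-binding protein, fell by 1.16 (standard error 0.12, adjusted p = 7.0e-05), from 302, 294 and 274 CPM to 134, 117 and 137 CPM. The IKK-16 levels lie below the DMEM mean of 191 CPM. Bcl3, an atypical IκB protein of the nucleus, changed by -0.83, Tnip1 by -0.65, Nfkbib, which encodes IκBβ, by -0.62 and Irak3, a brake on Toll-like receptor signaling, by -0.62. Nfkbiz, another nuclear IκB, had the third most negative value of the list (-0.92) but a wide spread, with 459.6, 791 and 418 CPM against 208, 400.3 and 272 CPM, and was not called (adjusted p = 0.061). Its adjusted p was 0.0070 in a model holding the replicate number, 0.028 without CM + Rux + IKK-16 replicate 2 and 0.0497 without CM + Rux replicate 3, each with a call. The 2 members with the highest values, Otud7b (0.23) and Traf3 (0.23), were not called either.

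**Figure D1:**
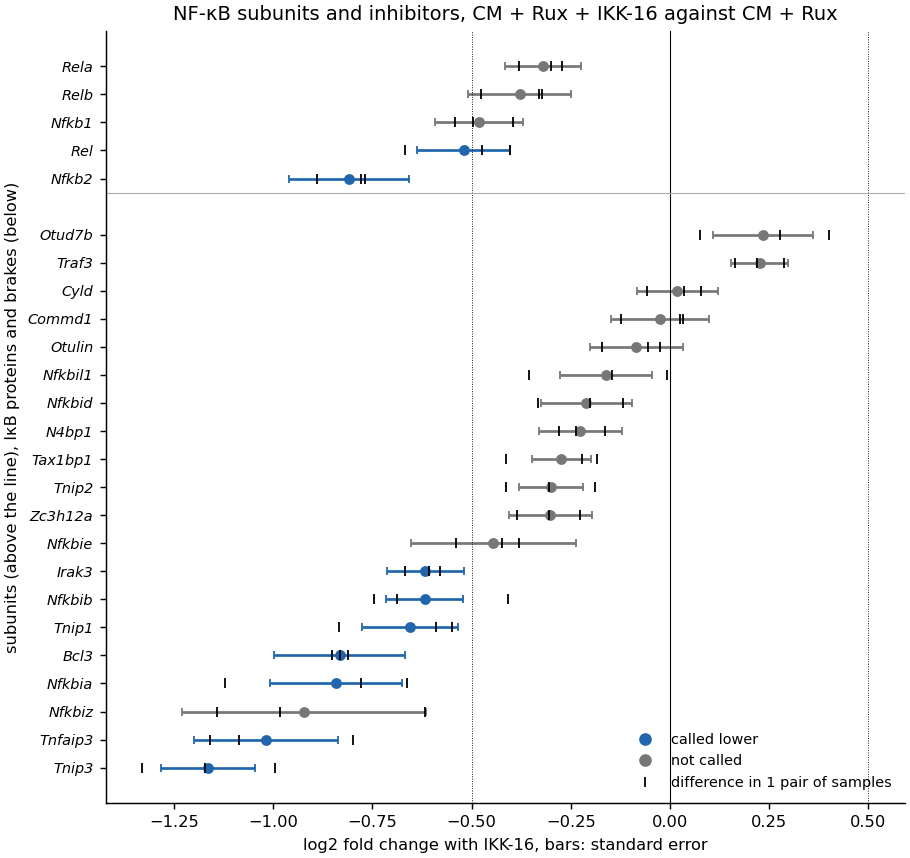
Log2 fold change of each NF-κB subunit and each IκB protein or brake with IKK-16 (horizontal axis), with bars for the standard error, short black ticks for the differences in the 3 pairs of same-numbered samples and dotted lines at -0.5 and 0.5. All 5 subunits lie left of 0, and the 9 genes called lower (blue) lie beyond -0.5.

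Among 20 genes of the IKK complex and its upstream kinases and adaptors, 1 was called lower (0 with total counts) and 0 higher, a share near the 3.66% of all genes called lower, around a median of -0.10. The member called was Tab2, an adaptor of the kinase TAK1, with 533, 513 and 498 CPM in CM + Rux and 342, 352 and 354 CPM with IKK-16 (log2 fold change -0.56, adjusted p = 2.1e-04). With total counts in place of the scaling used here the fold change of Tab2 was -0.47, inside the threshold.

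With the scaling used here, cytokine genes showed the largest share of falls among the 34 gene lists, with 11 of 20 tested called lower. Their median was -1.11, and 1 was called higher. With total counts 10 of the 20 were called lower, a share equal to that of the acute-phase genes (4 of 8). Il12b (ENSMUSG00000004296, chromosome 11 from 44400063 to 44414033), which encodes the p40 chain of IL-12 and IL-23, had 21.0, 63.4 and 60.2 CPM in CM + Rux and 1.24, 8.23 and 7.34 CPM with IKK-16. Replicate 1 was the lowest in both groups, and the groups did not overlap. The log2 fold change was -3.11 (standard error 0.76, adjusted p = 0.014), and without CM + Rux + IKK-16 replicate 1 the adjusted p was 0.055. Il10 (ENSMUSG00000016529, chromosome 1 from 131019845 to 131024974), an anti-inflammatory cytokine, had 56.4, 119 and 32.8 CPM against 3.51, 16.9 and 5.24 CPM. Replicate 2 was the highest in both groups and Il10 fell by 3.04 (standard error 0.59, adjusted p = 0.0041) with no overlap. Il1a, the gene of interleukin-1α, was the most abundant of the cytokine genes called, at 1565, 2984 and 2424 CPM in CM + Rux and 198, 917 and 698 CPM with IKK-16. It fell by 1.94 (standard error 0.40, adjusted p = 0.0060), and the adjusted p was 0.058 when the 2 groups were fitted alone.

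Il23a, which encodes the p19 chain of IL-23, had the largest called fall of the list (-3.20, standard error 0.995, adjusted p = 0.049), and its call was lost under several settings. Levels of Il23a were 8.71, 45.5 and 10.1 CPM in CM + Rux and 0.155, 5.81 and 1.28 CPM with IKK-16. The log2 fold change of Il23a was -1.99 without CM + Rux replicate 2 and -4.96 without CM + Rux + IKK-16 replicate 2. Its adjusted p was 0.14 without CM + Rux + IKK-16 replicate 1, 0.15 without replicate 3 of that group, 0.23 without CM + Rux replicate 2 and 0.051 without CM + Rux replicate 3, and with DESeq2 it was 0.071. In the model holding the replicate number it was 4.1e-04, and there 13 cytokine genes were called lower. Il33, an alarmin of the same list picked after its value was seen, had a lower value and was not called (-3.24, adjusted p = 0.061), but was called lower in the model holding the replicate number (adjusted p = 0.0014). Members picked after their values were seen were Il6 (-2.29, adjusted p = 0.0100), with 251, 439.6 and 252 CPM against 27.5, 109 and 57.3 CPM, and Il27 (-2.48, adjusted p = 2.5e-04), with 4.80, 6.73 and 5.14 CPM against 0.825, 1.38 and 0.816 CPM. Ebi3, which encodes the partner chain of IL-27, fell by 0.95 (adjusted p = 5.3e-04), from 132, 157 and 140.4 CPM to 60.1, 84.8 and 77.6 CPM. Il27 and Ebi3 were also chosen after their values were seen. Il1b, with a mean of 7695 CPM against 4607 CPM (-0.74, adjusted p = 0.16), and Tnf (-0.94, adjusted p = 0.082) were chosen likewise. Neither was called. Tnf was called lower in the model holding the replicate number (adjusted p = 0.030) and with no filter on low counts (0.0014). The single rise was that of Il16, a chemoattractant for CD4+ cells, from 1.11, 0.799 and 1.37 CPM to 2.24, 1.90 and 2.21 CPM (log2 fold change 1.01, adjusted p = 0.0087). In DMEM Il16 had a mean of 17.7 CPM (SD 2.20, n = 2).

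Of the chemokines 7 of 20 were called lower and 0 higher, with a median of -0.65. Ccl5 (ENSMUSG00000035042, chromosome 11 from 83525778 to 83530518), which attracts T cells and monocytes, had 428, 549.6 and 408 CPM in CM + Rux and 69.8, 152 and 111 CPM with IKK-16. The 3 IKK-16 samples were all below the 3 CM + Rux samples, and Ccl5 fell by 2.06 (standard error 0.26, adjusted p = 3.0e-04). Cxcl3, a neutrophil chemoattractant, stood at 1128, 1504 and 985 CPM against 389, 765 and 450.3 CPM and fell by 1.17 (adjusted p = 0.011). Leaving out CM + Rux + IKK-16 replicate 1 gave an adjusted p of 0.058, and leaving out replicate 3 of that group 0.052. Not all chemokines moved down. Ccl2, the monocyte attractant, which was picked after its values were seen, had 41.2, 220.2 and 108 CPM in CM + Rux and 94.3, 483 and 196 CPM with IKK-16. Its groups overlapped and it was not called (log2 fold change 1.06, adjusted p = 0.28), although each IKK-16 sample lay above the CM + Rux sample of the same number, and a model holding the replicate number gave 0.018.

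The acute-phase and antimicrobial proteins comprised 8 tested genes, of which 4 were called lower and 0 higher, with a median of -1.30. Lcn2 (ENSMUSG00000026822, chromosome 2 from 32384633 to 32388252), the iron-siderophore binding lipocalin, had 8.82, 5.64 and 11.04 CPM in CM + Rux and 0.850, 0.642 and 1.25 CPM with IKK-16. Saa3 (ENSMUSG00000040026, chromosome 7 from 46711998 to 46715700), a serum amyloid A protein made by macrophages, had 526, 554 and 935 CPM against 43.6, 63.6 and 114 CPM. In both genes replicate 3 was the highest of either group and the groups lay far apart. The log2 fold changes were -3.19 for both, with adjusted p-values of 1.7e-04 for Lcn2 and 5.4e-04 for Saa3. Mean levels in DMEM were 0.213 and 8.22 CPM, so that even with IKK-16 the means of 0.915 and 73.7 CPM stayed above those of plain medium.

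**Figure D2:**
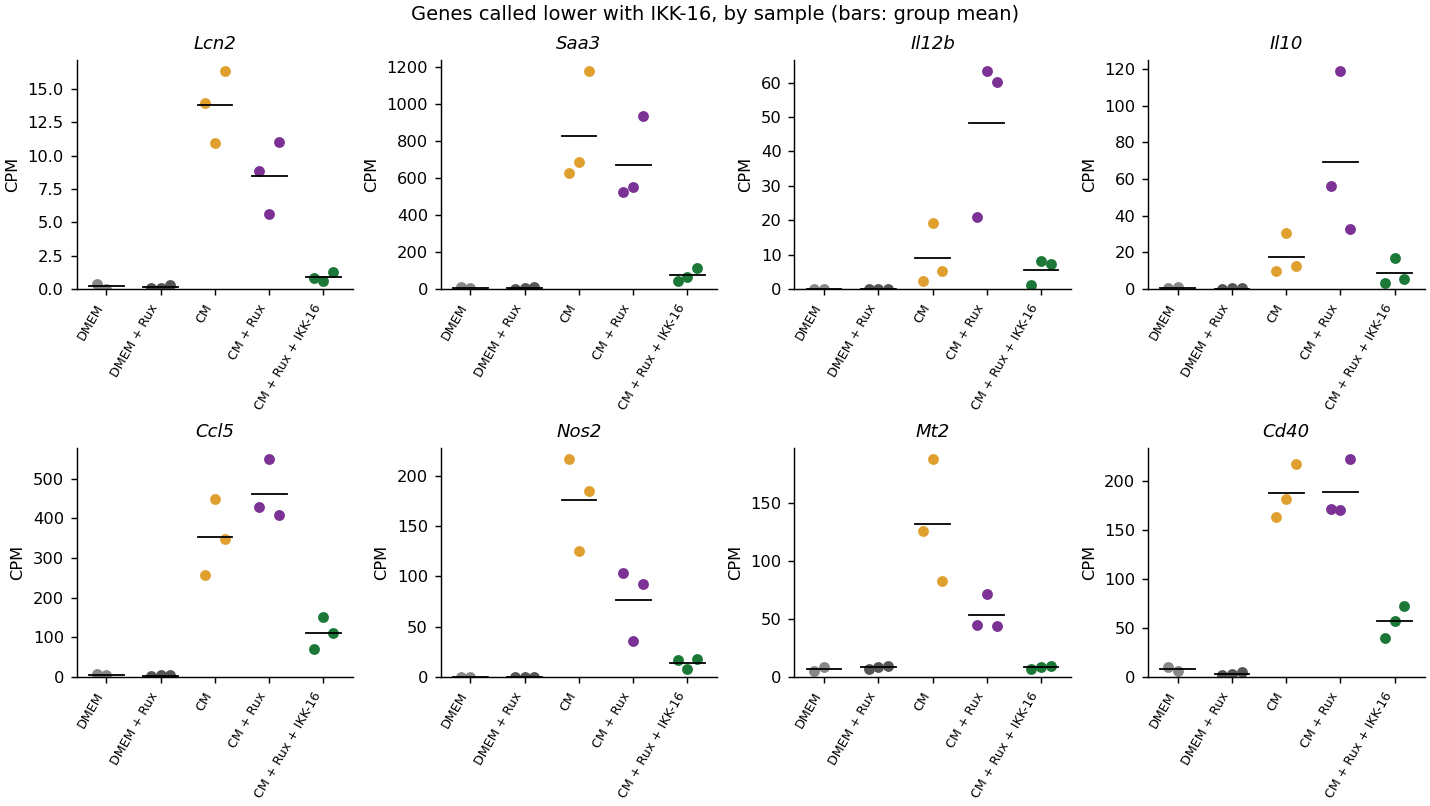
CPM (vertical axis, from 0) of 8 genes called lower with IKK-16 in each sample of DMEM, DMEM + Rux, CM, CM + Rux and CM + Rux + IKK-16, with horizontal bars for group means. In every panel the 3 IKK-16 samples lie below the 3 CM + Rux samples, which the naming rule required. DMEM samples are near or below the IKK-16 samples.

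Genes of adhesion, matrix and tissue remodelling followed, with 12 of 30 called lower and 0 higher and a median of -0.66. In the model holding the replicate number 17 were called lower. Has1, a hyaluronan synthase, had 60.8, 63.9 and 56.6 CPM in CM + Rux and 2.91, 7.74 and 6.85 CPM with IKK-16 (log2 fold change -3.38, standard error 0.28, adjusted p = 1.3e-05). Mmp13, a collagenase picked after its values were seen, went from 395, 277 and 391 CPM to 58.7, 50.3 and 61.1 CPM (-2.64, adjusted p = 7.2e-06). Adamts4 and Itgb8 are not members of this list and are named for the size of their falls. Adamts4, a protease of aggrecan, was at 16.9, 17.8 and 18.2 CPM against 1.21, 2.57 and 3.67 CPM (-2.83, adjusted p = 7.9e-05). The matrix-cleaving and matrix-building genes named here had no overlap between the groups. Itgb8, an integrin chain that binds latent TGF-β, fell by 2.76 (adjusted p = 1.3e-05), from 47.7, 33.9 and 42.7 CPM to 5.59, 5.54 and 7.20 CPM. The adhesion molecule Vcam1, also picked after its values were seen, fell by 1.84 (adjusted p = 0.0036), from 15.9, 20.2 and 26.6 CPM to 2.81, 6.58 and 8.07 CPM.

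Shisa3 (ENSMUSG00000050010, chromosome 5 from 67607882 to 67623552), whose family is known for inhibiting Wnt and FGF receptors, had the largest fall among the genes the naming rule admits. It had 29.1, 22.0 and 27.6 CPM in CM + Rux and 1.70, 2.02 and 2.65 CPM with IKK-16 (-3.63, standard error 0.21, adjusted p = 2.8e-06). Synpo2, an actin-binding protein, fell by 2.92 (adjusted p = 0.0088) and Gfi1, a transcriptional repressor of myeloid differentiation, by 2.81 (adjusted p = 3.1e-04). Gfi1 had 7.34, 3.54 and 5.50 CPM in CM + Rux and 0.490, 0.918 and 0.932 CPM with IKK-16.

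Selp, an adhesion molecule picked after its values were seen, was the 1 gene called lower with every IKK-16 sample at or under 3 counts. It is given as a bound of at least 3.07-fold lower, computed against 3 counts in each library, from a CM + Rux mean of 0.263 CPM.

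Nos2, the inducible nitric oxide synthase, had 103, 35.7 and 92.0 CPM in CM + Rux and 17.4, 8.53 and 17.7 CPM with IKK-16 (-2.40, standard error 0.50, adjusted p = 0.0086). Ptgs2, or cyclooxygenase-2, the inducible enzyme of prostaglandin synthesis, was among the most abundant genes called, with 3640, 4191 and 2435 CPM against 949, 1591 and 863 CPM (-1.59, standard error 0.28, adjusted p = 0.0024). Both kept a gap between the groups. In the list of itaconate, arginine and prostaglandin genes 4 of 21 were called lower and 2 higher, beside 3.66 and 4.07% of all genes. A gene called higher there was Hpgds, the prostaglandin D synthase of hematopoietic cells, at 88.7, 82.4 and 71.8 CPM against 140.2, 125 and 117 CPM (0.66, adjusted p = 0.028). Its adjusted p rose to at most 0.10 when 1 library was left out, and the call was lost without CM + Rux replicate 2 or 3 and without CM + Rux + IKK-16 replicate 1 or 2. Mt2, a metallothionein that binds zinc and copper, was at 44.7, 71.3 and 43.7 CPM against 7.01, 8.35 and 9.76 CPM (-2.67, adjusted p = 9.1e-05). That is close to its DMEM mean of 7.07 CPM (SD 1.98, n = 2).

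Genes of cell survival and death had 7 of 22 members called lower and 1 higher, beside 3.66 and 4.07% of all genes. The list also holds genes that promote cell death, and of these Bcl2l11, which encodes Bim, was among the falls (-0.55, picked after its value was seen), while Bax, Bak1, Bbc3 and Pmaip1 were not called. Gadd45b, a stress sensor that restrains JNK signaling, fell by 0.91 (adjusted p = 0.0016), from 211, 248 and 206 CPM to 109, 124 and 120.0 CPM. The rise was that of Bcl2, the founding anti-apoptotic gene, from 3.99, 6.39 and 5.65 CPM to 7.37, 12.1 and 12.7 CPM (1.004, standard error 0.21, adjusted p = 0.0073). Members that protect from cell death therefore stood on both sides. With total counts 3 of the 22 were called lower and 2 higher. Members called lower included Bcl2a1a, Bcl2a1b and Bcl2a1d, near-identical copies whose reads the authors' counting may have dropped or divided, and their values are uncertain.

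Genes of JAK and STAT signaling were described because ruxolitinib was present in both groups. Of 24 such genes 7 were called lower and 0 higher, with a median of -0.27, and in the model with the replicate number 6 were lower and 1 higher. Socs1, a feedback inhibitor of JAK kinases, had 14.6, 16.5 and 14.4 CPM in CM + Rux and 4.38, 5.41 and 5.68 CPM with IKK-16 (-1.56, standard error 0.12, adjusted p = 9.5e-06). Stat5a and Jak2, both picked after their values were seen, fell by 1.31 (adjusted p = 9.5e-06) and 0.81 (adjusted p = 5.0e-04). Jak2 had 659, 741 and 659 CPM against 362, 414 and 396 CPM, beside a DMEM mean of 60.7 CPM.

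Interferon-stimulated genes, the usual readout of JAK signaling, had 4 of 41 members called lower and 0 higher, a share above the 3.66% of all genes, with a median of -0.21. With the replicate number in the model 9 were called lower. Mx1, an antiviral GTPase, was at 5.02, 3.78 and 3.41 CPM in CM + Rux and 0.747, 0.795 and 1.14 CPM with IKK-16 (-2.20, adjusted p = 0.0017). Gbp5, a guanylate-binding protein that was picked after its values were seen, had 193, 166 and 219.7 CPM against 29.7, 40.9 and 57.5 CPM (-2.18, adjusted p = 6.4e-04). These 2 genes stood apart from most of the list, of which 37 members were not called.

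Among AP-1 and immediate-early genes 6 of 24 were called lower and 2 higher, led by Nr4a1, a nuclear receptor induced within minutes of stimulation (-1.76, adjusted p = 0.0080), with 58.8, 71.9 and 67.5 CPM against 13.6, 22.2 and 22.8 CPM. Mafk, a small Maf protein, was called higher (0.65). Of 20 MAP kinase phosphatases and Sprouty genes 2 were called higher and 2 lower, beside 4.07 and 3.66% of all genes. In the model holding the replicate number 4 were called higher and 5 lower. Dusp2, a phosphatase of MAP kinases, fell by 2.05 (adjusted p = 0.0035), from 48.1, 94.5 and 58.2 CPM to 9.28, 24.9 and 14.7 CPM. Dusp3 (0.57) and Dusp4 (0.51), phosphatases of the same family, were called higher. Dusp4 was picked after its values were seen, and Dusp3 lost its call without CM + Rux + IKK-16 replicate 1 (adjusted p = 0.057) or 3 (0.101) and without CM + Rux replicate 1 (0.101) or 2 (0.0897). Glycolysis and hypoxia response genes had 8 of 35 called lower and 0 higher, with 32 of the 35 below 0 and a median of -0.32. With total counts 5 were called lower and 1 higher. Ddit4, an inhibitor of mTORC1, was at 40.0, 69.8 and 42.5 CPM against 12.4, 24.6 and 14.2 CPM (-1.58, adjusted p = 0.0023). Hif1a, the oxygen-regulated transcription factor, had 1067, 1183 and 1064 CPM against 709.8, 804 and 791 CPM (-0.52, adjusted p = 0.0054). Its fold change was inside the threshold with total counts (-0.44), without CM + Rux + IKK-16 replicate 1 (-0.47) and without CM + Rux replicate 2 (-0.47).

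Among the genes the naming rule admits, the rises were led by Cd300lf (ENSMUSG00000047798, chromosome 11 from 115116214 to 115133992). It is an inhibitory receptor of myeloid cells that binds phospholipids. It had 3.10, 11.4 and 5.24 CPM in CM + Rux and 30.7, 67.8 and 36.1 CPM with IKK-16. Replicate 2 was the highest in each group and the lowest IKK-16 sample was above the highest CM + Rux sample. The log2 fold change was 2.74 (standard error 0.53, adjusted p = 0.0041). CM samples averaged 21.5 ± 11.5 CPM (SD, n = 3) and DMEM samples 9.67 ± 6.99 CPM (SD, n = 2). The IKK-16 mean of 44.9 ± 20.02 CPM (SD, n = 3) was above both.

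Other inhibitory and paired receptors did not move as a block. Of 28 tested, 5 were called higher and 3 lower, beside 4.07 and 3.66% of all genes. Their median was -0.08, and 0.01 with total counts. With the replicate number in the model 5 were called in each direction. Besides Cd300lf, the rises were Tmem154 (2.29), Cd200r1 (1.08), Cd300a (0.69) and Cd300lb (0.57), and the falls were Fcgr2b (-1.35), Treml4 (-0.76) and Milr1 (-0.63). Cd200r1, a receptor for the inhibitory ligand CD200, had 16.2, 21.3 and 22.0 CPM against 44.6, 37.6 and 43.3 CPM (adjusted p = 0.0016). Cd300a, another inhibitory CD300 receptor, had 110.3, 119.9 and 113 CPM against 190, 166 and 199 CPM (adjusted p = 8.6e-04). Fcgr2b, the inhibitory Fc receptor, went the other way, from 195, 245 and 368 CPM to 69.2, 96.0 and 153 CPM (adjusted p = 0.0083). Within the CD300 genes, Cd300c2 (0.41, adjusted p = 0.065), Cd300ld (0.46, adjusted p = 0.33) and Cd300e (-0.63, adjusted p = 0.50) were not called. Cd300c2 was called with total counts (0.501) and without CM + Rux replicate 2 (0.53), and Cd300e was called lower in the model holding the replicate number (adjusted p = 0.0105). Treml4 had 6.04, 4.89 and 5.65 CPM against 2.86, 2.60 and 4.34 CPM and lost its call with total counts (adjusted p = 0.052), without CM + Rux replicate 1 (adjusted p = 0.096) or 3 (0.069) and without CM + Rux + IKK-16 replicate 1 (0.12) or 2 (0.093).

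Among the other large rises, Angptl2 (ENSMUSG00000004105, chromosome 2 from 33216069 to 33247717), a secreted angiopoietin-like protein, had 6.28, 12.2 and 9.97 CPM in CM + Rux and 43.2, 65.6 and 52.1 CPM with IKK-16. The groups were far apart (log2 fold change 2.50, standard error 0.30, adjusted p = 1.9e-04), and the DMEM mean was 41.5 CPM (SD 15.3, n = 2). Ccnd1 (ENSMUSG00000070348, chromosome 7 from 144929931 to 144939925), the gene of cyclin D1, which drives entry into the cell cycle, had 2.72, 4.94 and 3.36 CPM against 5.82, 26.8 and 14.8 CPM. Its IKK-16 samples were spread widely, the lowest being just above the highest CM + Rux sample, and the log2 fold change was 2.08 (standard error 0.44, adjusted p = 0.0073). Cd28 (ENSMUSG00000026012, chromosome 1 from 60716800 to 60773359), known as a costimulatory receptor of T cells, had 8.09, 9.13 and 6.51 CPM against 29.8, 27.0 and 25.9 CPM (1.79, standard error 0.27, adjusted p = 9.0e-04). Of the T and NK cell markers, 6 including Cd3d and Cd3g were at 0. The most abundant, Cd5, had 1.51, 0.848 and 1.43 CPM against 2.42, 1.74 and 2.33 CPM (0.80, adjusted p = 0.11) and passed an unadjusted p of 0.05, and the part of such cells in the Cd28 values was not tested. The DMEM mean of Cd28 was 131 CPM (SD 72.4, n = 2), far above both groups.

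Cxcr4 (ENSMUSG00000045382, chromosome 1 from 128588199 to 128592293), the receptor of the chemokine CXCL12, was the 1 gene called higher among 41 chemokine, cytokine and purine receptors, of which 6 were called lower. These counts stand beside 4.07% of all genes called higher and 3.66% lower, and with the replicate number in the model 9 were called lower. Cxcr4 had 125, 95.1 and 110.4 CPM in CM + Rux and 393, 237 and 282 CPM with IKK-16 (1.47, standard error 0.18, adjusted p = 2.5e-04). All IKK-16 samples were above all CM + Rux samples and replicate 1 also lay above the DMEM mean of 373 CPM (SD 31.8, n = 2), with the other two below it. Bhlhe41, a clock-linked repressor, rose by a log2 fold change of 1.32 (adjusted p = 0.011), from 36.9, 29.1 and 58.5 CPM to 113, 75.1 and 120.0 CPM.

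The most abundant genes called higher included Plxna1, a semaphorin receptor, Fnip2, a partner of folliculin in nutrient sensing at the lysosome, Slc43a2, an amino acid transporter, and Lhfpl2, a tetraspan membrane protein. Fnip2 had 211, 236 and 225 CPM in CM + Rux and 572, 550.0 and 562 CPM with IKK-16 (1.33, adjusted p = 7.5e-04). Slc43a2 had 218, 226 and 243 CPM against 496, 411 and 503 CPM (1.04, adjusted p = 6.8e-05). Both had narrow groups with a wide gap between them. Lhfpl2 rose by 0.80 (adjusted p = 1.9e-04) from 481, 579 and 484 CPM to 947, 899 and 840 CPM, and differs from the others in that its CM mean of 434 CPM was above its DMEM mean of 262 CPM. Plxna1 had 639.8, 382 and 662 CPM against 1198, 703 and 1156 CPM (0.86, adjusted p = 0.031). Its call was lost without CM + Rux replicate 2 (adjusted p = 0.11) and without CM + Rux + IKK-16 replicate 1 (0.12) or 3 (0.10).

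**Figure D3:**
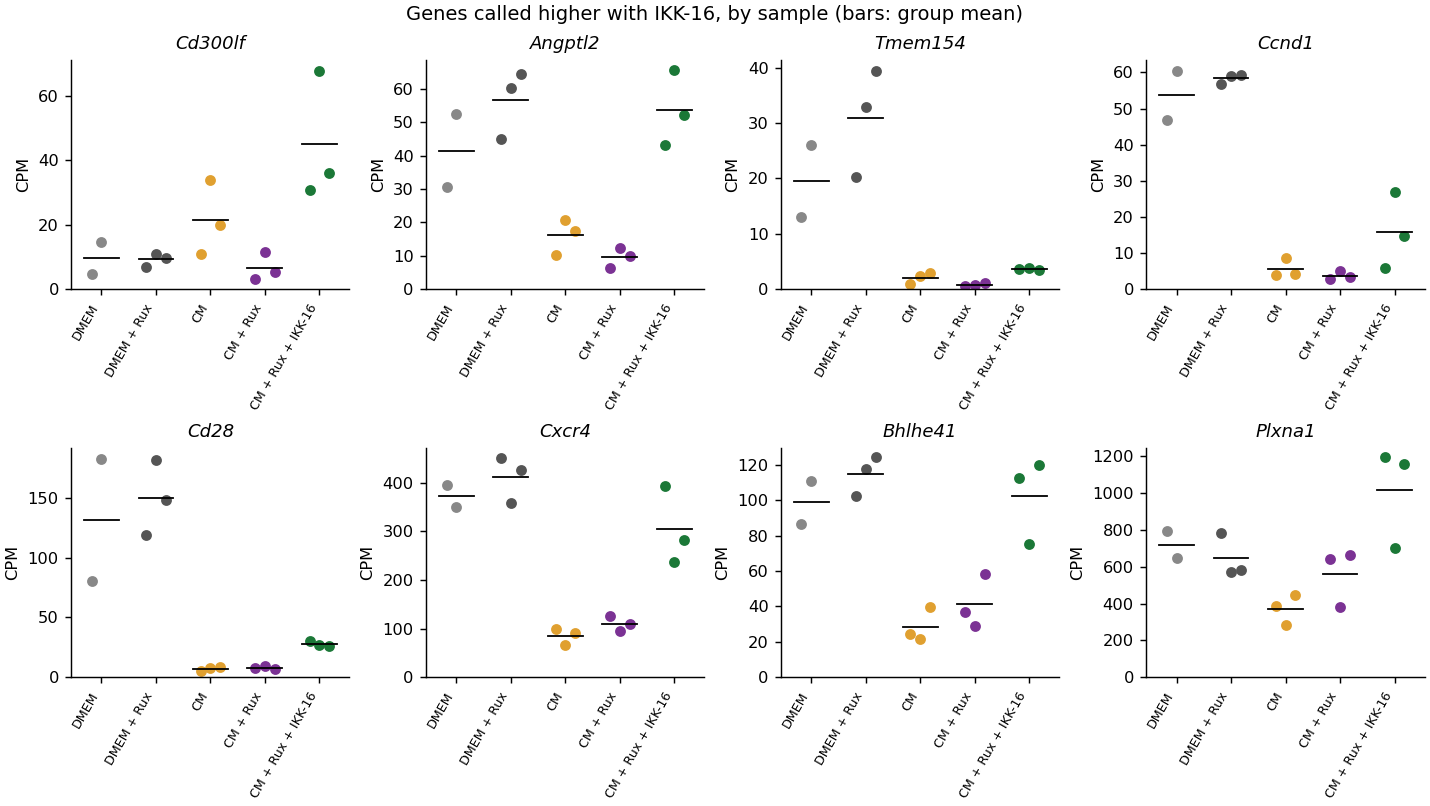
CPM (vertical axis, from 0) of 8 genes called higher with IKK-16 in each sample of DMEM, DMEM + Rux, CM, CM + Rux and CM + Rux + IKK-16, with horizontal bars for group means. All 3 IKK-16 samples lie above the 3 CM + Rux samples in each panel, which the naming rule required. For Tmem154, Ccnd1 and Cd28 the IKK-16 samples remain below the DMEM samples.

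Receptors that sense microbial products and TNF family ligands had 5 of 29 members called higher and 2 lower, beside 4.07 and 3.66% of all genes. Their median was -0.03, and 0.06 with total counts. Fitted with the replicate number, 6 were called higher and 4 lower. Tnfrsf26, a decoy-type receptor of the TNF family, had 19.9, 21.4 and 14.3 CPM in CM + Rux and 69.3, 63.8 and 53.9 CPM with IKK-16 (1.74, standard error 0.15, adjusted p = 2.2e-05). Tlr9 and Tlr4, receptors for microbial DNA and lipopolysaccharide that were picked after their values were seen, were higher by 1.17 (adjusted p = 0.0035) and 0.68 (adjusted p = 0.0026). Tlr4 had 127, 117 and 105 CPM against 208, 180.4 and 170.4 CPM. In the other direction Cd40, a costimulatory receptor of antigen-presenting cells, fell by 1.73 (adjusted p = 7.3e-04), from 172, 171 and 222 CPM to 39.8, 57.6 and 73.0 CPM. Receptor genes thus changed both ways, while all but 1 of the 19 calls among cytokine and chemokine genes were falls.

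Beside 4.07% of all genes called higher, lysosome genes had 4 of 33 members called higher and 0 lower, with 29 of the 33 above 0 and a median of 0.17. With total counts 7 were called higher. The gene named by the rule is Atp6v0d2, a subunit of the proton pump, at 15.1, 13.03 and 16.4 CPM in CM + Rux and 32.1, 23.5 and 32.2 CPM with IKK-16 (0.99, adjusted p = 0.0064). Npc1 and Gla, a cholesterol exporter and an α-galactosidase picked after their values were seen, were higher by 0.73 in both cases (adjusted p = 0.0017 and 1.9e-04). Gla had 160, 158 and 151 CPM against 301, 232 and 241 CPM. LXR targets and fatty acid genes had 3 of 20 called higher and 0 lower, led by Ppargc1b, a coactivator of mitochondrial genes, with 0.620, 0.484 and 1.17 CPM against 2.86, 1.19 and 3.26 CPM (1.79, adjusted p = 0.0095). The gap between its groups was narrow, and the adjusted p was 0.055 when the 2 groups were fitted alone. Abcg1 (0.57) and Fads1 (0.501), picked after their values were seen, both lost their calls without CM + Rux + IKK-16 replicate 1. In that fit the adjusted p of Abcg1 was 0.066 and the log2 fold change of Fads1 was 0.44. Abcg1 also lost its call without CM + Rux + IKK-16 replicate 3 (adjusted p = 0.053) and without CM + Rux replicate 1 (0.063) or 2 (0.088). Fads1 also lost its call without CM + Rux replicate 3 (log2 fold change 0.42). Cholesterol synthesis genes had 1 of 24 called higher, a share near that of all genes. It was Dhcr7, the enzyme of the last step (1.08, adjusted p = 0.0016), and ribosome biogenesis genes had 0 of 26 called in the quasi-likelihood test of edgeR. In the lists given here with 0 calls in a direction, an unadjusted p under 0.05 with the same fold threshold and DESeq2 also gave 0 in that direction, except for 1 lysosome gene that was lower by both. Other settings gave calls there as well. The replicate block gave 1 chemokine and 1 JAK or STAT gene higher, and 1 lysosome and 2 cholesterol synthesis genes lower, and total counts gave 1 gene higher in each of the interferon-stimulated, glycolysis and ribosome biogenesis lists.

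Cell cycle genes had 4 of 42 members called higher and 4 lower, beside 4.07 and 3.66% of all genes. With total counts 6 were called higher and 2 lower, beside 727 and 350 of all genes. Besides Ccnd1, the rises were those of Cdt1 (0.89), Ccnb1 (0.97) and Mcm2 (0.75), which serve replication licensing and mitosis, and the named fall was that of Tyms, the thymidylate synthase (-0.92). The inhibitors Cdkn1a (-0.54) and Cdkn1b (-0.52) were also among the falls, close to the threshold. All of these but Ccnd1 and Tyms were picked after their values were seen. Both calls of inhibitors were lost with total counts. That of Cdkn1a was also lost without CM + Rux + IKK-16 replicate 1 or 3 and without any 1 of the CM + Rux replicates (adjusted p from 0.066 to 0.18), and that of Cdkn1b without CM + Rux + IKK-16 replicate 1 or 3 and without CM + Rux replicate 1 or 2 (adjusted p from 0.0545 to 0.15).

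**Figure D4:**
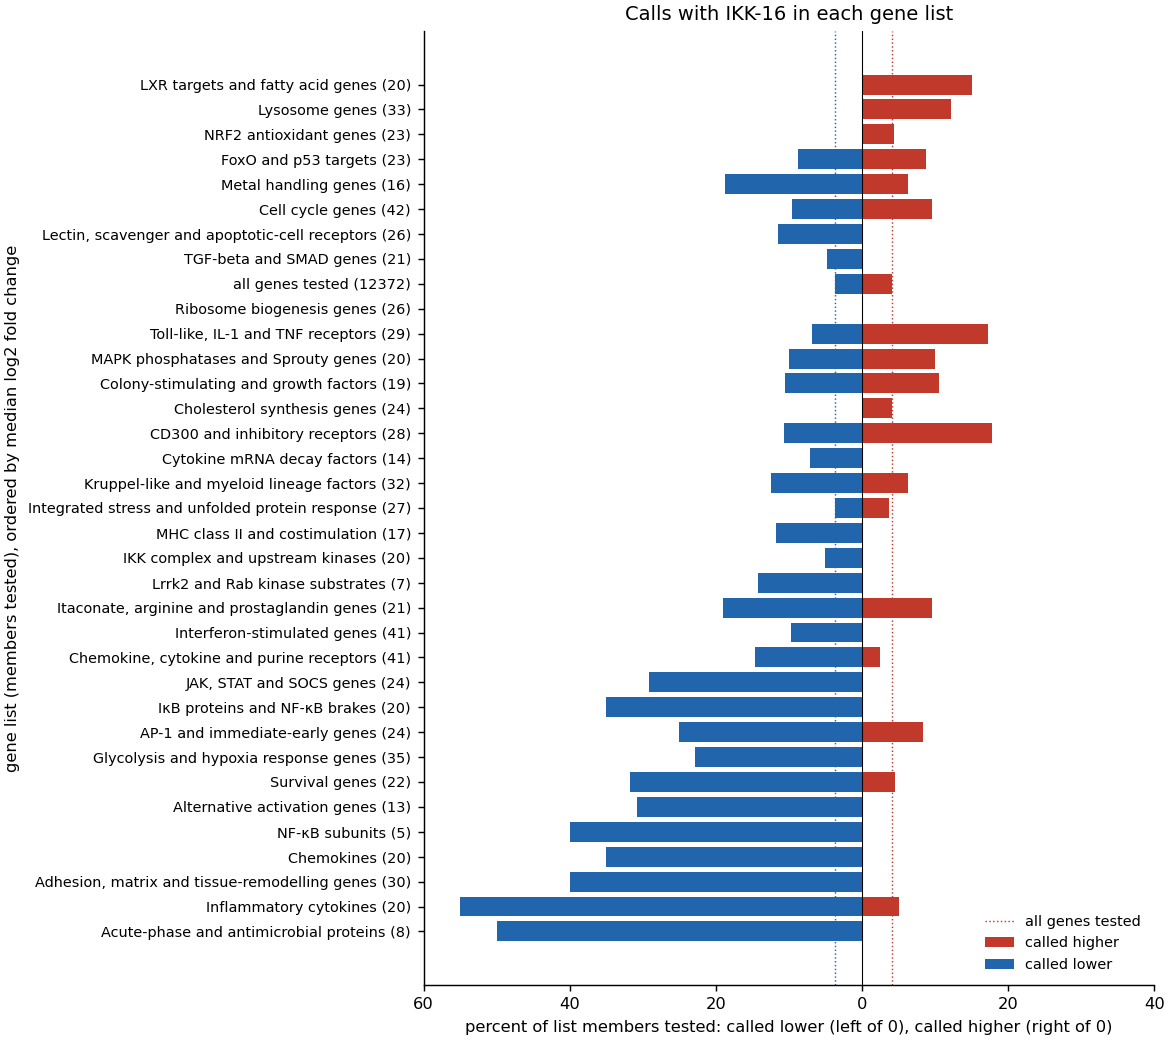
Percent of the tested members of each of 34 gene lists, and of all 12372 genes tested, called lower (blue, left of 0) or higher (red, right of 0) with IKK-16, in the order of the median log2 fold change, with dotted lines at the shares of all genes. Cytokines, acute-phase proteins, adhesion and matrix genes, NF-κB subunits, NF-κB brakes and chemokines have the largest shares called lower, and the lists with the largest shares called higher are inhibitory receptors, Toll-like and TNF receptors and LXR targets.

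The IKK-16 comparison was then set beside the effect of the tumor medium itself, CM against DMEM, which uses none of the same samples. In CM 2584 genes (20.9% of those tested) were called higher than in DMEM and 2980 (24.1%) lower. Of the 453 genes called lower with IKK-16, 358 had been called higher in CM, which is 79.0% of that list and 13.9% of the genes higher in CM. A further 15 had been called lower in CM and 80 were not called. Of the 504 genes called higher with IKK-16, 374 had been called lower in CM, which is 74.2% of that list and 12.6% of the genes lower in CM. In the same direction as the tumor medium were 29, and 101 were not called. The larger part of the rises therefore involved genes with lower RNA in tumor medium than in plain medium, and the larger part of the falls genes with higher RNA.

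The changes were partial in size. Of the 374 genes lower in CM and higher with IKK-16, the IKK-16 mean was still below the DMEM mean in 335. Of the 358 genes higher in CM and lower with IKK-16, it was still above the DMEM mean in 328. The IKK-16 mean was above the CM mean in 371 of the 374 and below it in 341 of the 358. Both sets were chosen for a called difference between CM and DMEM, which favors these counts. The median log2 fold change of CM over DMEM was -1.16 for genes called higher with IKK-16, 1.62 for genes called lower and close to 0 for all genes. With the 26 genes at 3 or fewer counts in each DMEM sample set to their bound, the median for genes called lower was 1.61. Across 12371 genes the log2 fold changes of both comparisons had a Pearson correlation of -0.56 and a Spearman correlation of -0.56. This is a description across genes, which are not independent replicates, and all groups come from one series of libraries.

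**Figure D5:**
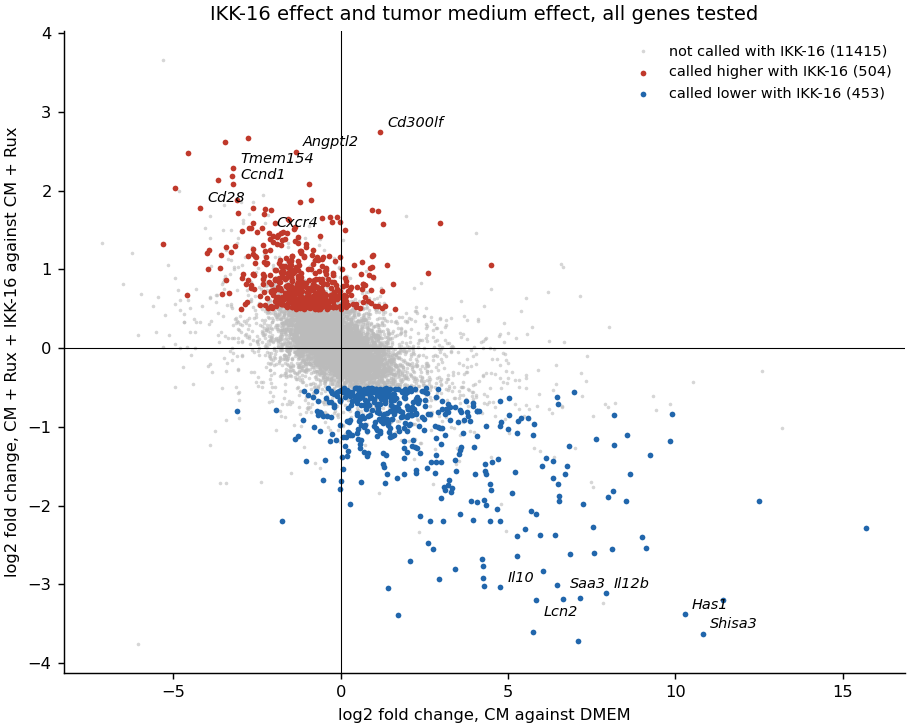
Log2 fold change with IKK-16 (vertical axis) against that of CM over DMEM (horizontal axis) for each gene tested, with genes called higher in red (504), lower in blue (453) and all others in grey. Most red points lie left of 0 and most blue points right of 0. Fitted values of genes at or near 0 in DMEM, at the far right, depend on the small count that the model adds.

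Exceptions to this pattern were found among the named genes. Tnfrsf26 was higher in CM, with a mean of 39.7 CPM (SD 3.91, n = 3), than in DMEM, with 18.3 CPM (SD 0.0081, n = 2), and yet rose with IKK-16 to 62.3 CPM (SD 7.83, n = 3). Mx1 was lower in CM, with a mean of 9.31 CPM, than in DMEM, with 31.99 CPM, and fell with IKK-16 to 0.893 CPM. The CM + Rux group is shared by the comparison with CM, so only values are given for it. Tnfrsf26 had a mean of 18.5 CPM in CM + Rux and Mx1 4.07 CPM. Lrrk2, a kinase of Rab proteins, lay close together in CM, at 17.7 ± 1.67 CPM (SD, n = 3), and with IKK-16, at 17.4 ± 3.27 CPM (SD, n = 3). Its samples had 31.99, 36.4 and 33.7 CPM in CM + Rux and 14.02, 20.6 and 17.6 CPM with IKK-16 (-0.97, standard error 0.13, adjusted p = 3.4e-04).

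By class, 475 of the genes called higher and 427 of those called lower were protein coding, out of 11186 tested. Of 471 long noncoding genes 22 were called higher and 17 lower, and of 593 pseudogenes 4 and 9. Dnmt3aos, a transcript antisense to Dnmt3a, was among the 12 largest rises by the naming rule, with 0.809, 0.702 and 0.712 CPM in CM + Rux and 3.53, 2.02 and 2.65 CPM with IKK-16 (1.88, adjusted p = 0.0048). The counting used the strand of the reads. The median exon length was 5234 bases for genes called higher, 4387 for genes called lower and 4274 for all genes, and the part of length in the calls was not tested.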

How the data were processed

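RNA of 16 samples of mouse BMDMs was sequenced from stranded TruSeq libraries. The authors deposited raw fragment counts for each gene. Per the labels and the study's methods, they used Trimmomatic 0.33, HISAT2 2.1.0 on GRCm38 and featureCounts 1.6.2 with Ensembl annotation 100, counting pairs with both ends aligned and a mapping quality of at least 10 on the reverse strand. Reads of near-identical genes may therefore be undercounted. Gene symbols and coordinates are from GENCODE on GRCm38 (55141 of 55487 identifiers matched). Samples were grouped by title.

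Counts were scaled by relative log expression, and genes above 1 CPM in at least 2 of the 16 samples were kept (12372). 1 model of all samples and 6 groups was fitted with the quasi-likelihood test of edgeR 4.0.16 (limma 3.58.1, R 4.3.3), with Benjamini-Hochberg adjustment. DESeq2 1.42.0 was an alternative. Other steps used Python 3.11.15, pandas 2.3.3, numpy 2.4.6 and matplotlib 3.10.9. CPM use the scaled totals. Relative to total counts, it shifted the median log2 fold change by -0.087, and relative to TMM by -0.015. Same-numbered samples of both groups deviated together from their group means (correlations of 0.50, 0.63 and 0.51). All other pairings were below 0, but deviations from a mean of 3 samples sum to 0, so these are not separate evidence. What the numbers stand for is not given by the labels. The pairing comes from the titles, and a model with the replicate number was run as an alternative. In a simulation, counts were drawn independently for each sample, with the fitted spread and no replicate effect. Log2 changes of 1 or 2 in size were given to 100 genes each, all with a mean of at least 1 CPM. Of these 91% and 100% were called (12266 genes tested), with 3 unchanged genes called. The real samples share deviations by replicate number, so these shares hold for the simulated setting only.

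Depth was 20706611 to 46215853 fragments per sample in the 2 groups compared. A limit of 3 counts per library stands for a count of 0, and covers counting error only. Pair differences used log2(CPM + 0.1).

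The comparison, the gene lists and the marker lists were chosen with earlier results of these data known, and no list is independent evidence. Named genes were those called, with a mean of at least 1 CPM and no overlap of the samples: the 12 largest changes and the 8 most abundant in each direction, and the largest call in each direction of each list. All NF-κB subunits, brakes and CD300 and inhibitory receptors could be named.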

Additional observations from a re-analysis of the deposited data

How the results depend on the processing

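With the replicate block in the model of all samples, 719 genes were called higher and 623 lower, which include 501 of the 504 and 449 of the 453 genes. The paired model of the 2 groups alone (replicate block) gave 807 genes higher and 667 lower, and without the block it gave 410 and 376. Without a threshold on the fold change the counts were 831 and 947, and beyond a log2 fold change of 1 they were 131 and 179. TMM scaling gave 542 and 432, DESeq2 573 and 501, and no filter on low counts 609 and 581. Leaving out each replicate in turn gave between 357 and 508 genes higher and between 311 and 521 lower. Among these fits, both counts were lowest without CM + Rux + IKK-16 replicate 1. Of the 90 named genes that were called, 65 kept the call under each of the up to 14 settings tried per gene, and no named gene reversed its direction as a call. With 3 samples a group, genes under about 1 CPM rest on few fragments, and the labels do not say what the replicates are.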

Other observations

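Beside 3.66% of all genes called lower and 4.07% higher, the alternative activation genes had 4 of 13 lower and 0 higher by edgeR. With the replicate block 6 were lower and 1 higher, and 1 was higher at an unadjusted p under 0.05, by DESeq2 and with total counts. The 4 falls without the block were Socs1 and Fcgr2b, described above, and Ccl24, a chemokine for eosinophils, and Slc7a2, an arginine transporter, both picked after their values were seen. Of the colony-stimulating and growth factors 2 of 19 were called higher and 2 lower (2 and 4 with the replicate block), with Pdgfb, a platelet-derived growth factor, at 168, 142 and 171 CPM in CM + Rux and 62.5, 72.7 and 93.2 CPM with IKK-16 (log2 fold change -1.07, edgeR adjusted p = 5.1e-04). Lectin, scavenger and apoptotic-cell receptors had 3 of 26 lower and 0 higher by edgeR with the scaling and model used here. At an unadjusted p under 0.05, by DESeq2 and with the replicate block 1 was higher. With TMM scaling and with total counts 2 were higher. Timd4, a receptor for phosphatidylserine, was at 42.2, 57.3 and 57.6 CPM against 15.7, 22.3 and 23.5 CPM (-1.35, adjusted p = 6.7e-04). Neither gene had overlapping groups. Of the TGF-β and SMAD genes 1 of 21 was called, Acvr1b, an activin receptor, which fell by 0.79 (adjusted p = 4.4e-05). With the replicate block 1 gene of this list was also called higher.

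Metal handling genes had 3 of 16 called lower and 1 higher, beside 3.66 and 4.07% of all genes, and 3 in each direction with the replicate block. Besides Mt2, the falls were those of Mt1, a second metallothionein, with 64.8, 82.7 and 66.9 CPM against 38.8, 35.8 and 42.1 CPM, and Slc39a14, a zinc and iron importer, with 427, 486 and 399 CPM against 148, 226 and 178 CPM (both picked after their values were seen). The rise was that of Steap3, a ferrireductase (0.86, adjusted p = 5.4e-04). Zfp36, which encodes the mRNA decay factor tristetraprolin, was the 1 of 14 decay factors called by edgeR without the replicate block. With the block, at an unadjusted p under 0.05 and by DESeq2, 2 were called lower. Zfp36 was at 515, 843 and 482 CPM against 212, 399.7 and 210.3 CPM (-1.16, adjusted p = 0.017). Its call was lost without CM + Rux + IKK-16 replicate 1 (adjusted p = 0.081) or 3 (0.073) and without CM + Rux replicate 2 (0.077).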
